A study of Nothobranchius furzeri with 20 samples.

Results

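In skin of the turquoise killifish (Nothobranchius furzeri), 311 of 26739 gene IDs stood higher in every library of 14 weeks than in every library of 5 weeks, without the 7 and 10 weeks libraries also falling into separate ranges. Levels are in CPM, the share of the counts of a library that an ID takes, scaled so that each library has the same total. Members had a mean level over the 20 libraries from 1 to 2000 CPM, a lowest 14 weeks value above the highest 5 weeks value, and 7 and 10 weeks values whose ranges overlapped. Of the 17203 IDs within these bounds on the mean, 364 had the 14 weeks values wholly above the 5 weeks values (2.12%). In 53 of the 364 the 10 weeks values lay wholly above the 7 weeks values, and these IDs were set aside. All 311 members passed the filter on low counts. The members were chosen by their CPM at 5 and 14 weeks, with a limit from 7 and 10 weeks, so that difference is described here and not tested. In the opposite direction, 62 IDs in the bounds (0.36%) had every 14 weeks value below every 5 weeks value, and 33 of them had overlapping 7 and 10 weeks values. Both directions were counted on library totals, and the lower one under no other scaling. On library totals the median log2 fold change from 5 to 14 weeks over all IDs that passed the filter was 0.25. With totals corrected for composition it was 0.07. The 2 counts are therefore not read as more genes rising than falling.

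The samples were whole skin of male fish of GRZ, an inbred strain of very short life used to study ageing. There were 5 libraries at each of 5, 7, 10 and 14 weeks of age, with no treatment. Whether each library stands for another fish is not in the labels, and p-values therefore cover only the variation among these libraries, some of it possibly technical. Fish skin has a living epidermis of keratinocytes over a collagen-rich dermis made by fibroblasts, with scales, pigment cells, vessels and immune cells. In vertebrates, ageing skin is known for changes in its matrix, its immune cells and the renewal of its epidermis. A bulk library mixes all of these, so more cells of a type and more RNA per cell cannot be told apart. Genes appear in the files under IDs without names, and 0 of them matched the RefSeq gene table of the species. The members therefore carry no gene name, function or sequence here, and the tissue could not be checked against its markers. The 3 IDs printed are the member with the widest gap between the ages, the member with the highest mean level, and the single member called lower at a later age.

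Library totals ran from 21581757 to 35137022 counts. The first principal component was taken on log2 CPM with library totals corrected by the TMM factors described below. It explained 42.8% of the variance. Far out on it lay 4 libraries, at 85.4 (7 weeks replicate 3), 118 (10 weeks replicate 4), 151 (14 weeks replicate 3) and 189 (14 weeks replicate 4), while no other library exceeded 45.3. In these 4 libraries the 20 most abundant IDs took 13.6% to 21.49% of the counts, against 21.6% to 33.6% in the other 16. The TMM factor, which edgeR uses to correct a library total for its composition, was 1.24 to 1.31 in these 4 libraries and 0.742 to 1.12 in the others. With library totals corrected by these factors, 190 IDs met the same rule, and 148 of the 311 members (47.6%) were among them.

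Summed over all members, the level by library totals was about even among libraries at 5 weeks and uneven later. Their summed level was 3680, 3787, 3849, 3580 and 4346 CPM in replicates 1 to 5 of 5 weeks. It was 3801, 3165, 7615, 7188 and 5692 CPM at 7 weeks. The 7 weeks libraries thus split, with replicates 1 and 2 inside or below the range of 5 weeks and replicates 3, 4 and 5 above it. At 10 weeks the summed level was 4797, 6341, 9799, 10500.1 and 6671 CPM, and at 14 weeks it was 7139, 6188, 14093, 11465 and 9719 CPM. All 10 weeks libraries lay above all 5 weeks libraries, and the 10 and 14 weeks ranges overlapped. The mean was 3848 ± 297 CPM (SD, n = 5) at 5 weeks, 5492 ± 1981 at 7 weeks, 7622 ± 2426 at 10 weeks and 9721 ± 3213 at 14 weeks (SD, n = 5 each). With TMM-corrected totals the means were 4107 ± 538, 5152 ± 1366, 7652 ± 1144 and 8878 ± 1623 CPM in the same order (SD, n = 5 each). The order of the age means was the same under both scalings. After the correction the SD was smaller at 7, 10 and 14 weeks and larger at 5 weeks, where the libraries ran from 3512 to 4826 CPM. The choice of members fixes that 14 weeks lies above 5 weeks, and it favours a small spread at 5 weeks on library totals. Pearson's r between the log2 sum and the first component was 0.71 over the 20 libraries, and 0.52 with the sum on TMM-corrected totals. The component itself was on TMM-corrected totals in both. The part of that component in the summed level was not tested.

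**Figure D1:**
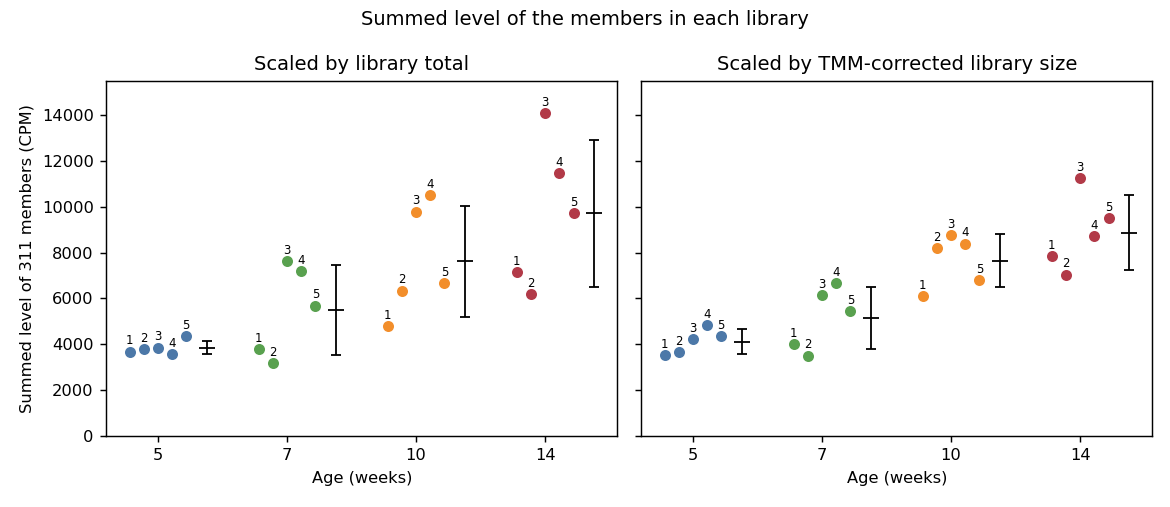
Summed level of the 311 members in CPM (y axis) by age in weeks (x axis), with library totals on the left and TMM-corrected totals on the right. Points are libraries with their replicate number, and bars give the mean ± SD (n = 5). The 5 weeks libraries sit between 3580 and 4346 CPM on the left, and 14 weeks replicates 3 and 4 stand highest at 14093 and 11465 CPM.

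Most members were separated by little. The lowest 14 weeks level was at least 2 times the highest 5 weeks level in 9 members and at least 1.5 times in 24, with a median ratio of 1.11. In 152 members it was under 1.1. Just inside the threshold the ratio was 1.0002, and just outside it was 0.9999, with 359 IDs of the same mean level and overlap at a ratio from 0.9 to 1. In 46 members the exact 95% Poisson intervals of the 2 libraries that meet at the threshold were apart, and in 265 they overlapped. These intervals cover counting error only. At the lower bound on the mean, the lowest member stood at 1.02 CPM and the nearest ID outside at 0.98 CPM. Age means differed by a median of 1.01 on the log2(CPM + 0.5) scale, from 0.21 to 4.31, with 157 members over 1 and 50 over 2. A pseudocount understates differences of low genes, and 49 members had fewer than 10 counts in a 5 weeks library.

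A few libraries set the threshold. Replicate 5 held the highest 5 weeks level in 151 members, against 27, 37, 54 and 42 for replicates 1 to 4. Replicate 2 held the lowest 14 weeks level in 140 members and replicate 1 in 84, against 10, 21 and 56 for replicates 3, 4 and 5. At the upper end of the 14 weeks libraries, replicate 3 was highest in 170 members. These counts use library totals. The matching shares of all IDs were not taken, so the counts are not read as particular to the members. The TMM factor was 0.910, 0.879, 1.25, 1.31 and 1.02 in replicates 1 to 5 of 14 weeks. Its part in these counts was not tested. The rule applied without 5 weeks replicate 5 gave 715 members, and it gave 766 without 14 weeks replicate 2 and 561 without 14 weeks replicate 1. Leaving out any other single library gave 275 to 431. Without the 4 libraries far along the first component the rule gave 439 IDs, of which 257 were among the 311.

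The widest gap was that of Nfu_g_1_002693. Its level was 1.48, 3.84, 6.51, 1.13 and 1.76 CPM in replicates 1 to 5 of 5 weeks, and 37.6, 37.0, 54.7, 46.8 and 73.6 CPM at 14 weeks. The lowest 14 weeks value was 5.68 times the highest 5 weeks value. At 7 weeks it stood at 2.58, 0.498, 7.63, 30.1 and 3.57 CPM, and at 10 weeks at 16.8, 2.98, 2.90, 4.67 and 11.2 CPM. All 14 weeks libraries were thus above all other 15 libraries, and 7 weeks replicate 4 was the next highest. The age means were 2.94 ± 2.26, 8.87 ± 12.1, 7.71 ± 6.11 and 49.95 ± 15.1 CPM from 5 to 14 weeks (SD, n = 5 each). Fold changes here and below come from edgeR's quasi-likelihood fit over all 19192 tested IDs with TMM factors. Since it was picked for high 14 weeks and low 5 weeks values, its changes to 14 weeks are given as a description, without a test. The log2 fold change was 3.92 from 5 weeks (SE 0.85), 2.52 from 7 weeks (SE 0.80) and 2.45 from 10 weeks (SE 0.80). With TMM-corrected totals its highest 5 weeks level was 7.13 CPM and its lowest 14 weeks level 35.7 CPM.

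The 3 members with the next widest gaps were like it in which libraries were high. The member with the second-widest gap stood at 0.768 to 3.50 CPM at 5 weeks and 11.8, 12.3, 22.9, 15.9 and 87.7 CPM at 14 weeks. At 7 weeks it reached 23.6 CPM in replicate 4 and at most 1.78 CPM in the other replicates. The third stood at 5.64 to 28.2 CPM at 5 weeks and at 75.2, 65.6, 244, 181 and 532 CPM at 14 weeks, with 562 CPM in 7 weeks replicate 4. The fourth, a scarcer transcript, stood at 0.272 to 1.37 CPM at 5 weeks and at 3.58 to 16.6 CPM at 14 weeks, with 9.22 CPM in 7 weeks replicate 4. In all 4, 14 weeks replicate 5 was the highest library of its age.

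The highest mean level was that of Nfu_g_1_002418, at 220 CPM over the 20 libraries. Per kilobase of its recovered length of 1428 bases it was also the highest of the members, at 154 CPM per kilobase. At 5 weeks it stood at 47.0, 50.2, 34.3, 109 and 123 CPM in replicates 1 to 5, and at 7 weeks at 34.9, 25.2, 275, 39.7 and 129 CPM. At 10 weeks it stood at 126, 360, 751, 569 and 364 CPM, and at 14 weeks at 387, 201, 198, 230 and 337 CPM. The highest levels were thus in 10 weeks libraries, and replicates 4 and 5 of 5 weeks were above the other 3 of their age. Its log2 fold change was 2.25 from 7 to 10 weeks (SE 0.58, adjusted p = 0.00935, edgeR), a call kept without any single library. The ID was picked for its mean over all 20 libraries, which its high 10 weeks values raise. The rule also limits the 7 and 10 weeks values, so this p-value is a description. The other changes use the 5 or 14 weeks libraries on which the members were chosen and are described without a test. The log2 fold change was 2.41 from 5 to 10 weeks (SE 0.58), 1.56 from 7 to 14 weeks and −0.69 from 10 to 14 weeks (SE 0.56). Without 7 weeks replicate 3 the value from 7 to 14 weeks was 2.22.

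Among the members, 1 was called lower at a later age. Nfu_g_1_014470 stood at 90.0, 105, 115, 96.2 and 100.2 CPM at 5 weeks and at 52.3, 34.2, 85.5, 59.4 and 88.4 CPM at 7 weeks. Every 7 weeks library was below every 5 weeks library. It then stood at 80.5, 97.2, 151, 156 and 121 CPM at 10 weeks and at 128, 116, 228, 168 and 180 CPM at 14 weeks. It fell by 0.85 on the log2 scale from 5 to 7 weeks (SE 0.19, adjusted p = 0.0313, edgeR). The adjusted p was 0.0511 to 0.0937 without 5 weeks replicate 3, 4 or 5 or 7 weeks replicate 1, 2, 3 or 4, and 0.238 without TMM factors. It was picked for this call out of all members, so the p-value describes how it was found. Its log2 fold change from 7 weeks, where it was picked as low, was 1.02 to 10 weeks (SE 0.19) and 1.33 to 14 weeks (SE 0.19). Its 5 and 14 weeks values nearly touched, at a ratio of 1.01. With TMM-corrected totals they overlapped, at up to 130 CPM at 5 weeks and from 128 CPM at 14 weeks.

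**Figure D2:**
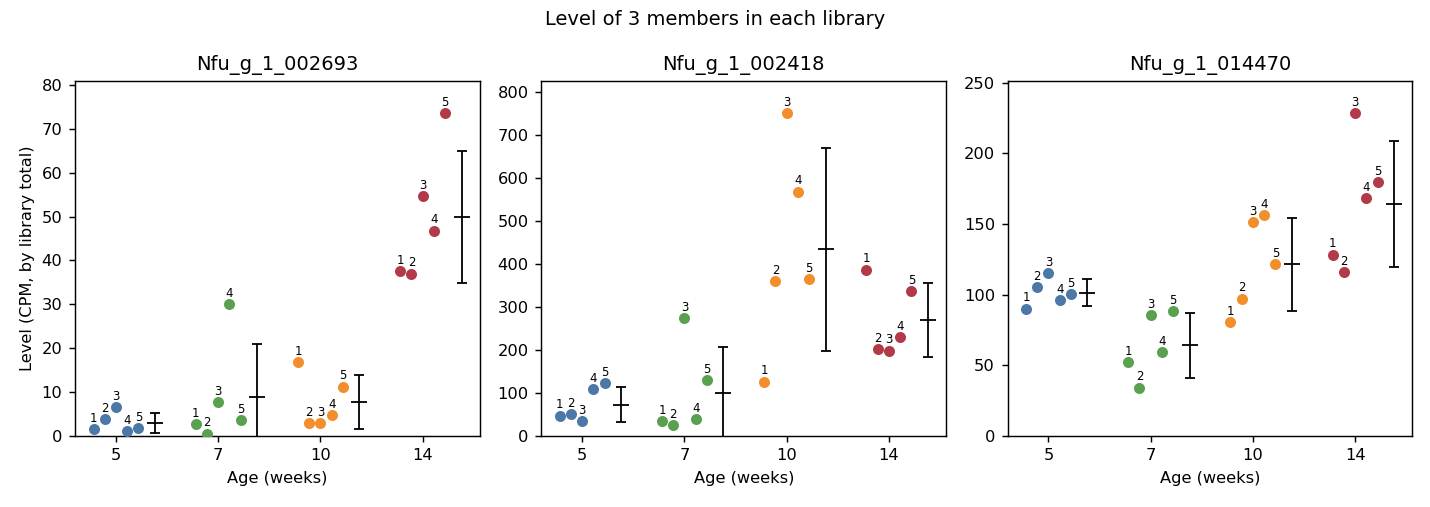
Level in CPM by library total (y axis) of 3 members by age in weeks (x axis). Points are libraries with their replicate number, and bars give the mean ± SD (n = 5), cut at 0. Nfu_g_1_002693 is at 37.0 CPM or more in the 14 weeks libraries, Nfu_g_1_002418 peaks at 751 CPM in 10 weeks replicate 3, and Nfu_g_1_014470 is lowest at 34.2 CPM in 7 weeks replicate 2.

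To place the middle ages, each member's mean log2(CPM + 0.5) was put on a scale that runs from 0% for its mean at 5 weeks to 100% for its mean at 14 weeks. The median position was 35.1% at 7 weeks (quartiles 7.47% and 55.0%) and 62.4% at 10 weeks (quartiles 42.7% and 95.8%). Without 7 weeks replicate 3 the median at 7 weeks was 21.1%. The 7 weeks mean lay below the 5 weeks mean in 60 members and the 10 weeks mean in 4. The 10 weeks mean lay above the 14 weeks mean in 71 members and the 7 weeks mean in 10. Means increased at every step in 119 members (38.3%), against 6.17% of all IDs in the bounds, a share that the choice on the end points raises. In 66 members the order was 5, 10, 7 and 14 weeks from low to high, in 53 it was 5, 7, 14 and 10 weeks, and in 48 it was 7, 5, 10 and 14 weeks. The 10 weeks mean exceeded the 7 weeks mean in 238 members (76.5%), against 43.1% of all IDs in the bounds. The rule limits these ages too, so the share is a description. Without 14 weeks replicates 3 and 4 the median position of 10 weeks moved to 107%, and without the 4 libraries far along the first component it was 87.5%. These positions and counts are on library totals. With TMM-corrected totals the median position of the members was 25.7% at 7 weeks and 71.8% at 10 weeks.

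**Figure D3:**
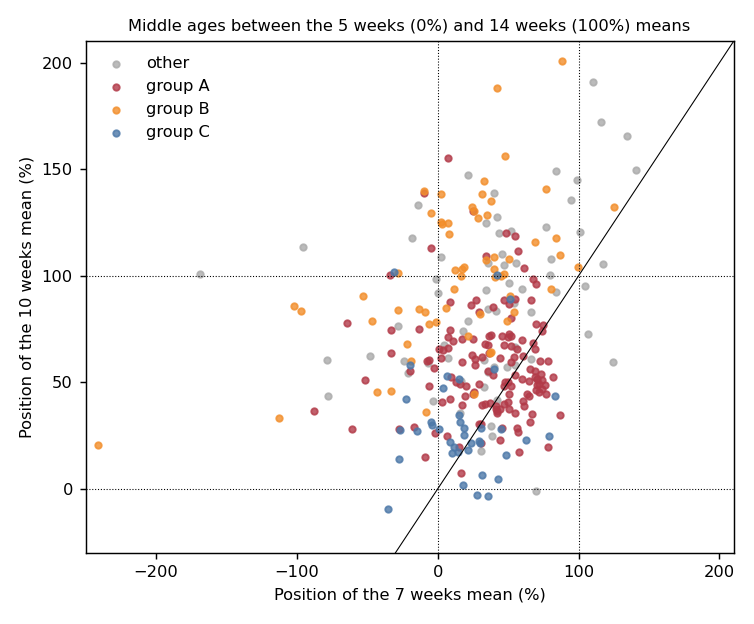
Position of the 10 weeks mean (y axis, %) against that of the 7 weeks mean (x axis, %) for each of the 311 members, where 0% is the 5 weeks mean and 100% the 14 weeks mean (dotted lines). Points are members, coloured by co-varying group, and the solid line marks equal positions. More points lie above the line, 238 of 311 (76.5%, against 43.1% of all IDs in the bounds). Group B lies highest, with a median of 101% at 10 weeks.

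Single libraries of 7 and 10 weeks differed widely in how many members stood above the 5 weeks range. At 7 weeks, 101, 89, 254, 156 and 197 of the 311 members were above all 5 weeks libraries in replicates 1 to 5. At 10 weeks the numbers were 157, 182, 265, 291 and 242. The matching shares of all IDs were not taken for single libraries, so these numbers are not read as particular to the members. Replicate 3 of 7 weeks and replicate 4 of 10 weeks, both far along the first component, were the highest of their age. In all 5 libraries of the age, 41 members (13.2%) were above all 5 weeks libraries at 7 weeks, where the share of all IDs in the bounds was 4.45%. At 10 weeks 85 members (27.3%) were, against 4.73% of all IDs. These shares rest on the same 5 weeks libraries that chose the members, which had to be low there. In 40 members (12.9%, against 4.65%) the 14 weeks values lay wholly above those of 7 weeks, and in 20 members (6.43%, against 0.291%) wholly above those of 10 weeks, where the 14 weeks libraries chose the members too.

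In edgeR's test of 14 against 5 weeks, which shares its contrast with the rule, 0 members were called at an adjusted p under 0.05, beside 0% of all tested IDs called higher and 0.0104% called lower. An unadjusted p under 0.05 was found in 260 of the 311 members (83.6%) and 23.5% of all tested IDs, and DESeq2 called 212 members, all higher, and 11.7% of all tested IDs. The rule chose the members on these values, so nothing is read from their counts here. Leaving out 14 weeks replicate 1, 2 or 5 gave 140, 151 or 126 members called in edgeR, beside 7.72%, 11.03% or 6.63% of all tested IDs in either direction. Leaving out 5 weeks replicate 4 or 5 gave 20 or 9, beside 0.587% or 0.299%, and leaving out 7 weeks replicate 2 gave 1, beside 0.0155%. The median log2 fold change of the members was 0.999, beside 0.07 over all tested IDs. With library totals alone these medians were 1.20 and 0.25, so the scaling moved both by a like amount.

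Between 10 and 7 weeks edgeR called 78 members higher at 10 weeks (25.1%), against 10.5% of all tested IDs, and 0 lower, against 12.6%. The median log2 fold change was 0.40 in the members and −0.01 in all tested IDs. The rule had removed the 53 IDs with 10 weeks wholly above 7 weeks, so the count says nothing of those. In either direction edgeR called 25.1% of the members and 23.1% of all tested IDs. With library totals in place of TMM factors 37 of the 311 members were called, all higher. That is a smaller share than the 17.9% of all tested IDs called in either direction. DESeq2 called 113 members, all higher, beside 27.6%.

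Between 14 and 7 weeks 96 members were called higher (30.9%), against 9.39% of all tested IDs, and 0 lower, against 8.16%. The median log2 fold change over all members was 0.81, beside 0.13 in all tested IDs. The count was 58 when 7 weeks replicate 1 was left out and 46 when replicate 2 was, beside 12.1% and 9.39% of all tested IDs in either direction. With library totals in place of TMM factors it was 66, beside 11.6%, and in DESeq2 142, beside 24.6%. Between 10 and 5 weeks 75 members were called higher (24.1%), against 2.38% of all tested IDs, and 0 lower, against 4.23%, with a median log2 fold change of 0.72 beside 0.03. That count was 18, 12 or 22 with 5 weeks replicate 1, 2 or 3 left out, beside 0.670%, 0.418% or 1.20% of all tested IDs in either direction. It was 35, 29 or 46 with 10 weeks replicate 2, 3 or 5 left out, beside 2.10%, 1.30% or 2.92%. DESeq2 called 130 members, beside 13.4%. Both comparisons share with the rule either the 5 or the 14 weeks libraries.

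Between 7 and 5 weeks 0 members were called higher, against 0.391% of all tested IDs, and 1 lower, against 0.99%. An unadjusted p under 0.05 was found in 87 members (27.97%) and 17.4% of all tested IDs. DESeq2 called 36 members higher and 6 lower, beside 5.997% of all tested IDs in either direction. The median log2 fold change was 0.31, beside 0.01 in all tested IDs. Leaving out 1 library gave 0 to 3 calls. Between 14 and 10 weeks edgeR called 0 members and 0% of all tested IDs, with 76 members (24.4%) and 18.7% of all tested IDs at an unadjusted p under 0.05. DESeq2 called 7 members higher, beside 1.17% of all tested IDs in either direction. The median log2 fold change was 0.21, beside 0.08, and without 14 weeks replicates 3 and 4 it was −0.0039. Without 14 weeks replicate 1, 5 members were called, beside 2.65% of all tested IDs in either direction. The 5 weeks libraries of the first comparison and the 14 weeks libraries of the second also chose the members. The shares and medians of the members beside those of all tested IDs are therefore descriptions.

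Members also varied together within an age. With the age means removed, the median Pearson's r between members over the 20 libraries was 0.37 (quartiles 0.12 and 0.62), and 0.12 with TMM-corrected totals. The points share each library's total and composition. The matching r among all IDs in the bounds was not taken, so this co-variation is not read as particular to the members. Average linkage on 1 minus this r at a height of 0.5, a grouping chosen after the values were seen, gave 3 groups of at least 30 members, called A, B and C here, and 31 clusters of at most 7. Within A, B and C the median r was 0.76, 0.60 and 0.78, which grouping by r favours, and with TMM-corrected totals it was 0.49, 0.37 and 0.74. Between groups it was 0.47 for A and B, 0.14 for A and C and 0.23 for B and C. The groups are described without tests of their own. The edgeR calls given below for them and for the other members come from the fits above. Those fits use the same libraries that chose the members and formed the groups. Their shares beside all tested IDs are therefore descriptions only.

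**Figure D4:**
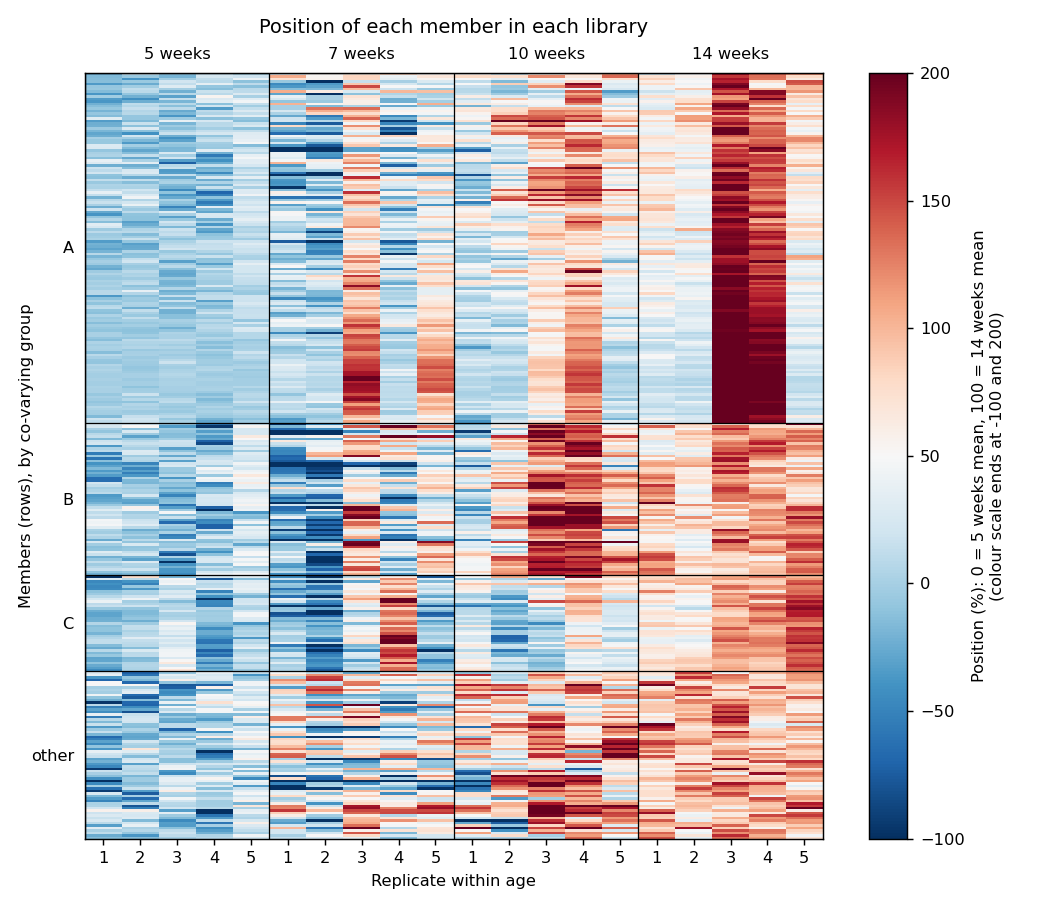
Position of each of the 311 members (rows, in co-varying groups A, B, C and other) in each of the 20 libraries (columns, by age and replicate), where 0% is the 5 weeks mean and 100% the 14 weeks mean of the member. Red marks high and blue low positions. Group A is reddest in 14 weeks replicates 3 and 4, group B in 10 weeks replicates 3 and 4, and group C in 7 weeks replicate 4 and 14 weeks replicate 5.

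Group A, with 142 members (45.7%), was highest at 14 weeks in replicates 3 and 4. Its summed level was 1243 to 1422 CPM at 5 weeks, and 1812, 1757, 8218, 5796 and 1892 CPM in replicates 1 to 5 of 14 weeks. At 7 weeks it was 1308, 1239, 3177, 1384 and 2133 CPM, and at 10 weeks 1461, 1745, 2410, 3218 and 1775 CPM. The high libraries of each age after 5 weeks thus included the 4 far along the first component. Pearson's r between the log2 sum and that component was 0.87 over the 20 libraries, a component that these members help to set. This sum was on library totals, and the TMM factor itself had an r of 0.81 with the component. The r of the group's sum on TMM-corrected totals was not taken. The parts of the component and of the scaling in the level of the group were not tested. Replicate 3 of 14 weeks was the highest of all 20 libraries in 119 of the 142 and replicate 4 in 12. In 45 members of the group the highest library was over 10 times the median of the 20, and in all 45 it was 14 weeks replicate 3 or 4. With TMM-corrected totals the sum was 1190 to 1689 CPM at 5 weeks and 1992, 1999, 6569, 4419 and 1848 CPM at 14 weeks, and 83 of the 142 met the rule.

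Within group A the largest fitted change between 5 and 14 weeks rested on a transcript near 0 in most libraries. It was at 0 counts in 4 of the 5 weeks libraries and at 0.0327 CPM in replicate 3. At 14 weeks it was highest in replicates 3 and 4, with 83.9 CPM in replicate 3, and stood at 0.0461 to 0.185 CPM in the other 3. It also reached 23.9 and 9.08 CPM in 7 weeks replicates 3 and 5 and 13.3 CPM in 10 weeks replicate 4. Its separation of 14 from 5 weeks thus rests on a few counts in 3 libraries. The most abundant member of the group by CPM was of another kind, at 49.0 to 71.4 CPM at 5 weeks and 83.9, 82.4, 159, 123 and 76.8 CPM at 14 weeks. In edgeR 50 of the 142 were called higher at 14 than at 7 weeks (35.2%, against 9.39% of all tested IDs), 25 at 10 than at 7 weeks (17.6%, against 10.5%) and 25 at 10 than at 5 weeks (17.6%, against 2.38%).

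Group B, with 62 members (19.9%), had its highest libraries at 10 weeks. Its summed level was 1351, 1343, 1216, 1370 and 1665 CPM at 5 weeks and 1214, 950.2, 2722, 1433 and 2248 CPM at 7 weeks. It was 1707, 3057, 5360, 4953 and 3115 CPM at 10 weeks and 3114, 2266, 2852, 2846 and 3433 CPM at 14 weeks. Replicates 1 and 2 of 7 weeks were below all 5 weeks libraries, replicate 1 by little, and 10 weeks replicates 3 and 4 were above all others. In 44 of the 62 the highest library was one of 10 weeks, and the 10 weeks mean lay above the 14 weeks mean in 32. In edgeR 38 were called higher at 10 than at 7 weeks (61.3%, against 10.5% of all tested IDs), 29 at 10 than at 5 weeks (46.8%, against 2.38%) and 24 at 14 than at 7 weeks (38.7%, against 9.39%). All 62 had a positive log2 fold change from 7 to 10 weeks, with a median of 0.84, and 47 had a negative one from 10 to 14 weeks, with a median of −0.16. These fold changes use TMM factors, so the 47 and the 32 are counts on unlike scalings. Its most abundant member by CPM was Nfu_g_1_002418. The second stood at 28.4 to 51.7 CPM at 5 weeks, 90.6, 351, 395, 549 and 295 CPM at 10 weeks and 76.0 to 333 CPM at 14 weeks. With TMM-corrected totals 19 of the 62 met the rule.

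Group C, with 39 members (12.5%), held the 4 members with the widest gaps, and its 10 weeks libraries overlapped those of 5 weeks. Its summed level was 556, 623, 831, 412 and 650.0 CPM at 5 weeks, and 904, 509, 777, 1205 and 886 CPM at 10 weeks. At 14 weeks it was 1301, 1212, 2048, 1951 and 3427 CPM. In this sum the 14 weeks libraries were all above those of 10 weeks. At 7 weeks it was 583, 399.7, 925 and 593 CPM in replicates 1, 2, 3 and 5 and 3735 CPM in replicate 4, the highest of all 20 libraries. In 23 members 14 weeks replicate 5 was the highest library and in 12 it was 7 weeks replicate 4. The median position was 18.2% at 7 weeks and 27.0% at 10 weeks. The longest member, at 18206 bases, belonged to this group and was its most abundant by CPM, with 37.5 to 93.2 CPM at 5 weeks, 790 CPM in 7 weeks replicate 4 and 98.1 to 413 CPM at 14 weeks. In edgeR 8 of the 39 were called higher at 14 than at 7 weeks (20.5%, against 9.39% of all tested IDs). From 7 to 10 weeks 1 was called higher (2.56%), below the 10.5% of all tested IDs, and from 5 to 10 weeks 1 was (2.56%), near the 2.38% of all. With TMM-corrected totals 31 of the 39 met the rule, and the sum was 531 to 910 CPM at 5 weeks and 1379 to 3349 CPM at 14 weeks.

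**Figure D5:**
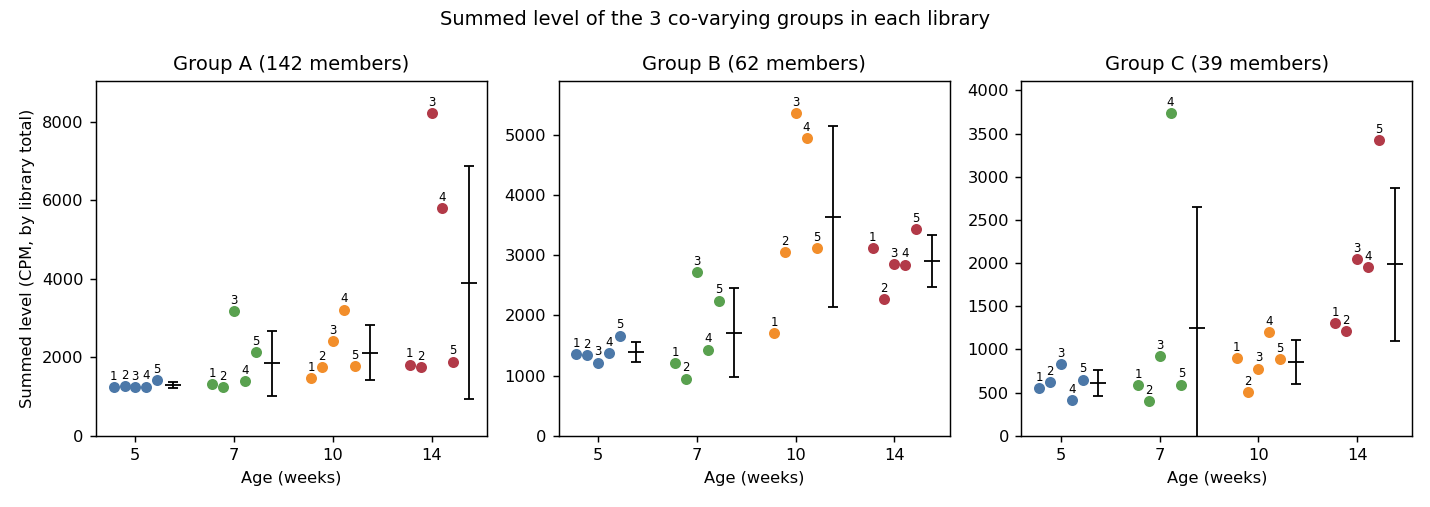
Summed level in CPM by library total (y axis, a separate scale in each panel) of groups A, B and C by age in weeks (x axis). Points are libraries with their replicate number, and bars give the mean ± SD (n = 5), cut at 0. Group A is highest in 14 weeks replicate 3 at 8218 CPM, group B in 10 weeks replicate 3 at 5360 CPM and group C in 7 weeks replicate 4 at 3735 CPM.

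The other 68 members made up small clusters. Their summed level was 525 to 609 CPM at 5 weeks, 576 to 791 CPM at 7 weeks, 725 to 1252 CPM at 10 weeks and 872 to 976 CPM at 14 weeks. The 10 weeks libraries thus spanned the range of 14 weeks, and replicate 3 was the highest at 1252 CPM. The median position was 40.8% at 7 weeks and 89.5% at 10 weeks. In edgeR 20 of the 68 were called higher at 10 than at 5 weeks (29.4%, against 2.38% of all tested IDs), 14 at 10 than at 7 weeks (20.6%, against 10.5%) and 14 at 14 than at 7 weeks (20.6%, against 9.39%). With TMM-corrected totals 15 of the 68 met the rule, and the sum was 501 to 735 CPM at 5 weeks and 665 to 1083 CPM at 14 weeks, where the ranges overlapped.

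The 148 members that met the rule under both scalings had larger changes than the other 163, which a second threshold on the same contrast brings with it. Their median log2 fold change from 5 to 14 weeks was 1.65 in edgeR, against 0.64 in the 163. From 7 to 10 weeks it was the smaller, at 0.21 against 0.53, and from 10 to 14 weeks it was 0.72 against 0.06. In edgeR 17 of the 148 (11.5%) were called higher at 10 than at 7 weeks, near the 10.5% of all tested IDs, and 61 of the 163 (37.4%). The 148 also had to have overlapping 7 and 10 weeks ranges on TMM-corrected totals, the scaling of these fits. That condition favours small changes from 7 to 10 weeks in the 148, so these counts and medians are descriptions.

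In level and length the members lay among the other IDs of the bounds. Their mean level had a median of 10.4 CPM, against 13.6 CPM for all 17203 IDs, with 100 members under 5 CPM and 11 over 100 CPM. Lengths, recovered from the counts and the deposited RPKM values, had a median of 3131 bases in the members (quartiles 1703 and 5413) and 2794 bases in all IDs of the bounds (quartiles 1413 and 4808). Within an age, the median SD of log2(CPM + 0.5) in the members was 0.23 at 5 weeks, 0.49 at 7 weeks, 0.47 at 10 weeks and 0.45 at 14 weeks. In all IDs of the bounds it was 0.38, 0.33, 0.42 and 0.56. The rule favours a small spread at 5 and 14 weeks, and its condition that the 7 and 10 weeks ranges overlap favours a wide spread at those ages. The SD was larger at 14 than at 5 weeks in 74.9% of the members and 71.4% of all IDs in the bounds.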

How the data were processed

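Skin RNA of 20 libraries was sequenced with a TruSeq RNA kit, per the labels' protocols. The authors deposited raw counts per gene ID and RPKM values (reads scaled to gene length and library size). The submitters' processing notes list featureCounts 1.4.6-p4, STAR 2.4.1d and CASAVA 1.8.2. Genome build, annotation and use of strand were not given in the sources used here, and reads shared by overlapping, antisense or nearly identical genes could be split either way.

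Members, comparisons and lists were chosen with earlier results of these data known. The printed IDs are the members with the widest gap on log2(CPM + 0.5), with the highest mean CPM, and called lower at 7 than at 5 or at 10 than at 7 weeks (up to 2; 1 was found). Marker lists of skin cell types could not be used without gene names. Replicate numbers follow accession order and pair no libraries.

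Counts were fitted with edgeR 4.0.16 in R 4.3.3 (filterByExpr, TMM factors, glmQLFit, glmQLFTest, group means of 4 ages over all 20 libraries), with Benjamini-Hochberg adjustment over 19192 IDs at 0.05. The fit used a single estimate of the spread of each ID for all 4 ages. Leaving out a library can therefore also change the comparisons between other ages. DESeq2 1.42.0, library totals alone, no filter, other bounds and left-out libraries were alternatives. The script was tested on simulated data. Levels in CPM use library totals unless stated. No library repeated another: the lowest chi-square per degree of freedom between a pair was 50.0. The 21581757 to 35137022 counts per library set the counting precision.

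In the deposited RPKM table, 99.96% of the values other than 0 follow from the counts with a series of 25 depths that repeats down the rows, and 5.32% with the library's own total, each within 0.1%. Only gene lengths were taken from it.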

Additional observations from a re-analysis of the deposited data

Results flagged for a closer look

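Outlying libraries were sought in 32 sets of 5 libraries (the summed levels of all members, of groups A, B and C and of the other members, and the 3 printed IDs, each at 4 ages). For independent sets of normal values, chance would flag about 1 in 20, or 1.6 of 32. These levels were not on a log scale, and the sum of all members holds those of the groups. The rule also shaped the 5 weeks values, so the 1.6 is only a rough guide. There were 3 flags, each with a gap to the nearest library of over 0.71 of the range of its age. The summed level of group A at 5 weeks was 1422 CPM in replicate 5, against 1243 to 1273 CPM in the other 4. The summed level of group C at 7 weeks was 3735 CPM in replicate 4, against 399.7 to 925 CPM in the others. Nfu_g_1_002693, a member of group C, stood at 30.1 CPM in the same library, against 0.498 to 7.63 CPM. The last 2 are not independent, since they share the library and the gene.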

How the results depend on the processing

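No paired analysis was possible because the replicate numbers only follow accession order. Percentages in brackets are the share of all tested IDs called in the same setting, in either direction. In edgeR, 0 members between 14 and 5 weeks (0.0104%) became 98 without 5 weeks replicates 4 and 5 (7.51%). The count was 1 with library totals only (0.0104%), 212 in DESeq2 (11.7%) and 0 to 151 on leaving out 1 library (0% to 11.03%). Between 7 and 5 weeks, 1 member (1.38%) became 42 in DESeq2 (5.997%) and 0 with library totals only (0.0417%). It became 0 without 5 weeks replicates 4 and 5 (0.0102%) and 30 without 14 weeks replicates 3 and 4 (4.00%). Without the 4 libraries far along the first component, an alternative chosen after seeing the data, it was 9 (2.54%). Leaving out 1 library gave 0 to 3 (0.098% to 1.66%). Between 10 and 7 weeks, 78 (23.1%) became 37 with library totals only (17.9%). Between 10 and 5 weeks, 75 (6.61%) became 130 in DESeq2 (13.4%) and 12 to 89 on leaving out 1 library (0.418% to 10.6%). Between 14 and 10 weeks, 0 (0%) became 7 in DESeq2 (1.17%) and 0 to 5 on leaving out 1 library (0% to 2.65%). Between 14 and 7 weeks, 96 (17.5%) became 66 with library totals only (11.6%) and 142 in DESeq2 (24.6%). On leaving out 1 library it was 46 to 99 (9.39% to 19.7%). The number of members by the rule was 190 with TMM-corrected totals, 24 with a ratio of at least 1.5, 1116 without 5 weeks replicates 4 and 5, 500 without 14 weeks replicates 3 and 4, and 275 to 766 on leaving out 1 library. Fewer libraries in a group make its separation easier to meet, and the part of this in these numbers was not tested. The median position at 10 weeks was 107% without 14 weeks replicates 3 and 4. The cause of the other changes was not tested either. The position at 7 weeks was 21.1% to 44.4% on leaving out 1 library. It and the median log2 fold changes moved by less than the SD between single libraries in every setting run. That SD was 32.4% in position and 0.48 in median log2 level. A median of 0.31 from 5 to 7 weeks or 0.40 from 7 to 10 weeks could vanish within it. It is therefore too wide to show that these medians held. Without 14 weeks replicates 3 and 4 the median from 10 to 14 weeks went from 0.21 to −0.0039. The median from 7 to 14 weeks went from 0.81 to 0.49 there. Low counts limit the 49 members under 10 counts at 5 weeks.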
